A study of Mus musculus with 2 samples.

Results

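Trim30a, Trim30b, Trim30d, Trim12a, Trim12c, Trim34a, Trim21 and Trim25, 8 of the 32285 genes listed in both count matrices, were followed by gene symbol through every cell that passed the filter and through cells grouped by marker genes. All 8 were found in both libraries. The data are single-cell transcriptomes of adherent bone marrow cells, taken per the labels from a wild-type, 3-month-old C57BL/6J male. In the DHT culture, 1 nM 5α-dihydrotestosterone, a potent androgen, was present throughout, and in the Vehicle culture ethanol took its place. Medium was depleted of hormones in both cultures. It carried 5 ng/mL M-CSF, a growth factor of macrophages and their precursors, for 48 h, and for 24 h more the doses were 100 ng/mL M-CSF, 30 ng/mL RANKL, which drives osteoclast formation, and 10 ng/mL human TNF, an inflammatory cytokine. Each group is 1 library, so no test between groups was possible, no difference has a replicate check, and every interval below covers counting error only, at 95%.

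TRIM proteins are E3 ubiquitin ligases built from a RING finger, 1 or more B-boxes and a coiled coil, and many of them also carry a PRY-SPRY domain that binds a target. Several are induced by interferon and act in innate immunity against viruses. In mouse macrophages, Trim30a limits Toll-like receptor signalling by driving the loss of the adaptors Tab2 and Tab3. Trim12a and Trim12c are rodent relatives of the primate restriction factor TRIM5, which recognises retroviral capsids. Trim21 is a cytosolic antibody receptor that sends antibody-coated particles to the proteasome, and Trim25 acts on the RNA sensor RIG-I, encoded by Ddx58. Trim30b, Trim30d and Trim34a are less studied relatives encoded beside them.

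Of the 8 genes, 6 lie side by side. Trim34a, Trim12a, Trim12c, Trim30b, Trim30a and Trim30d occupy chr7:104244457-104507849 (GRCm38, GENCODE M21), a stretch of 263 kb in which all 9 protein-coding genes are TRIM genes, the others being Trim5, Trim34b and Trim30c. Trim34a is on the plus strand and the other 5 are on the minus strand. Trim21 lies 1.68 Mb away at chr7:102557921-102565486 (minus strand), and Trim25 is at chr11:88999376-89020293 (plus strand). Each of the 8 is annotated as protein-coding. The gene annotation also places small predicted genes over 5 of them: Gm16464 overlaps Trim30d and Gm27995 overlaps Trim12c on the same strand, and Trim30a, Trim12a and Trim34a each have 1 on the opposite strand.

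The promoters are shown because most of these genes share a sequence there. In the 300-base RefSeq promoter windows (GRCm38.p6, 250 bases before to 50 after each start), the core of the interferon-stimulated response element, the site bound by interferon-activated transcription factors, was searched on both strands as GAAA, any 2 bases and GAAA. It was present in 6 of the 8 genes, Trim30b and Trim25 being without it, and in 3.44% of all 32851 promoter windows. By gene it was found in 17 of the 39 interferon-response genes with a window and in 3 of the 45 other TRIM genes with one. Stretches around the matches, with the match in capitals, are printed 5′ to 3′ on the strand of the gene:
Trim30a, chr7:104465205-104465244: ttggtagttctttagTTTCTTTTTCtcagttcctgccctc
Trim30a, second start, chr7:104446099-104446138: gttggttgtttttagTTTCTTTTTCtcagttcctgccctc
Trim30d, chr7:104507866-104507905: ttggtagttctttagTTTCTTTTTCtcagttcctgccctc
Trim12a, chr7:104315461-104315500: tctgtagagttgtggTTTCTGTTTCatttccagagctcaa
Trim12c, chr7:104353354-104353393: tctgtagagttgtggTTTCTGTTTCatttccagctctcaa
Trim34a, chr7:104244452-104244491: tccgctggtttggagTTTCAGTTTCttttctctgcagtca
Trim21, chr7:102565439-102565484: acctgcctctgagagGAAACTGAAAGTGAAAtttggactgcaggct

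The Trim30a and Trim30d stretches were the same letter for letter, and their whole windows were identical at 277 of 305 aligned columns (90.8%). Trim12a and Trim12c shared 72.9% of aligned columns, against 45.3% to 53.6% for windows of other pairs of genes. The second Trim30a window shared 70.0% with the first and 67.0% with that of Trim30d. The match began 36 bases upstream of the start in Trim30a, 41 bases upstream in Trim30d and 29 bases upstream in Trim12c, and 10 bases downstream in Trim12a and in Trim34a. In Trim21, 2 overlapping matches began 13 and 19 bases downstream. The whole window of Trim30a (chr7:104465144-104465443, minus strand) reads:
Trim30a: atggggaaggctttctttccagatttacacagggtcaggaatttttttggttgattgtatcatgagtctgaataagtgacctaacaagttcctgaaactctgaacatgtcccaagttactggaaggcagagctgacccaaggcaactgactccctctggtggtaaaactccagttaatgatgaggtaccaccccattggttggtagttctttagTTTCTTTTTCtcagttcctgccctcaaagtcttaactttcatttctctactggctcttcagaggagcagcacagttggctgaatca

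Neither of the other motifs searched was found in any of the 9 windows of the 8 genes. These were TTCNNNGAA, the core of the gamma-activated site, which 8.30% of all windows hold, and the full palindrome of the androgen response element, AGAACA, any 3 bases and TGTTCT, which 3 of 32851 windows hold. The RefSeq window of Trim30b lies inside the GENCODE gene rather than at its outer end, so its upstream start was not searched. A match is a run of letters and not a measured binding site, and no match speaks for these windows alone.

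The filter kept 7708 of 10798 DHT barcodes (296659811 unique molecular identifiers, UMIs, median 30133 per cell) and 8590 of 10630 Vehicle barcodes (430858831 UMIs, median 50833.5), and 33 barcode sequences occurred in both libraries. The labels call the cells osteoclast precursors. Osteoclast-like cells, led by genes such as Ctsk, Acp5 and Jdp2, made up 21.0% of DHT cells and 38.5% of Vehicle cells, with all 12 osteoclast markers detected in both. A cluster led by histone genes (9.15% of DHT cells, 19.5% of Vehicle cells) stayed unnamed and is not in this class. In it, 8 of the 12 osteoclast markers and 8 of the 10 macrophage markers were over 2-fold against the median cluster. Neutrophil-like cells made up 24.3% of DHT cells and 12.8% of Vehicle cells. Levels over all cells combine cell makeup with the level in each cell, and these cannot be told apart there. Levels are given as CPM, the UMIs of a gene out of every 1000000 UMIs of the cells summed.

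Over all filtered cells, the Trim30 genes had the widest gap between the cultures. Trim30a, the suppressor of Toll-like receptor signalling, stood at 91.1 CPM (27038 UMIs) in DHT cells and 25.9 CPM (11158 UMIs) in Vehicle cells, a ratio of 3.52 (interval 3.44 to 3.60). Trim30d, its close paralog, stood at 21.6 CPM in DHT cells and 3.34 CPM in Vehicle cells, a ratio of 6.47 (6.11 to 6.85). Trim30b stood at 5.27 CPM in DHT cells and 0.956 CPM in Vehicle cells, a ratio of 5.51 (4.94 to 6.15). All 3 were higher with DHT by far more than the counting interval allows.

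The relatives of TRIM5 and their neighbour followed in the same direction. Trim12a had 19.99 CPM in DHT cells and 8.39 CPM in Vehicle cells, a ratio of 2.38 (2.28 to 2.48). Trim12c had 26.7 CPM in DHT cells and 12.3 CPM in Vehicle cells, a ratio of 2.18 (2.10 to 2.25). Trim34a had 8.66 CPM in DHT cells and 2.81 CPM in Vehicle cells, a ratio of 3.08 (2.88 to 3.30). The 6 genes of the chromosome 7 stretch thus ranged in ratio from 2.18 to 6.47.

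The 2 genes outside that stretch differed less. The antibody receptor Trim21 had 5.58 CPM in DHT cells and 3.09 CPM in Vehicle cells, a ratio of 1.80 (1.68 to 1.94). Trim25, the ligase of RIG-I, had 81.7 CPM in DHT cells and 69.0 CPM in Vehicle cells, a ratio of 1.18 (1.16 to 1.20), below the 1.5-fold used here to call a gene higher or lower.

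A gene was called on reaching 20 CPM in either library and a ratio of 1.5. Of the 8 genes 4 reached that level, and 3 of these (Trim30a, Trim30d and Trim12c) were at least 1.5-fold higher with DHT and none was at least 1.5-fold lower, while 5.48% of the 6735 genes tested were higher and 0.178% lower. Trim30d and Trim12c reached 20 CPM in the DHT library alone, so a lower level in Vehicle was built into their selection. With no minimum level, 7 of the 8 genes passed 1.5-fold upward, Trim25 being the exception, against a background of 21.6% of 21602 genes with over 3 UMIs.

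Weighting classes equally changed several ratios. When the 7 named classes were given equal weight, the ratio of Trim30a was 2.59, that of Trim30d 3.09, that of Trim30b 2.56, that of Trim34a 1.72, that of Trim12c 1.70, that of Trim12a 1.22, that of Trim21 1.99 and that of Trim25 1.41. These ratios have no interval, and the small B lineage-like class (113 Vehicle cells) weighs heavily in them. Its Vehicle level was the highest of the 7 classes for Trim12a (135 CPM, 70 UMIs), Trim30d (54.0 CPM, 28 UMIs) and Trim34a (46.3 CPM, 24 UMIs). The ratios of Trim30d, Trim30b, Trim34a and Trim12a moved by over 1.5 times. The ratio of Trim12a was thus above 1.5 over all cells and below it over equally weighted classes, whereas those of Trim30a and Trim30d were above it under both. The ratio of Trim25 over all cells, 1.18, lay below its ratio in each of the 7 classes (1.31 to 1.62).

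In osteoclast-like cells, the class nearest to the name in the labels, Trim30a and Trim12c were again higher with DHT. The class held 1621 DHT cells and 3310 Vehicle cells of nearly equal depth (median 55260 UMIs in DHT and 55815 in Vehicle). Trim30a had 63.5 CPM in DHT cells and 19.3 CPM in Vehicle cells, a ratio of 3.28 (3.15 to 3.42). Trim12c had 21.3 CPM in DHT cells and 10.4 CPM in Vehicle cells, a ratio of 2.05 (1.92 to 2.18). Trim25 had 111 CPM in DHT cells and 85.1 CPM in Vehicle cells, a ratio of 1.31 (1.28 to 1.34). Trim30a and Trim12c, 2 of the 3 genes with at least 20 CPM, passed 1.5-fold upward, against a background of 1.01% of 6444 genes, and none passed downward (0.0621%). The Vehicle level of both was under 20 CPM, so a lower level in Vehicle was again built into their selection.

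The remaining genes were sparse in this class. Trim30d had 7.39 CPM in DHT cells and 1.10 CPM in Vehicle cells, a ratio of 6.73 (5.76 to 7.90). Trim12a had 10.9 CPM in DHT cells and 5.23 CPM in Vehicle cells (2.08, 1.90 to 2.27), and Trim34a 5.44 CPM in DHT cells and 1.87 CPM in Vehicle cells (2.92, 2.54 to 3.35). Trim21 had 3.84 CPM in DHT cells and 2.45 CPM in Vehicle cells, a ratio of 1.56 (1.36 to 1.80). Trim30b was close to undetected, with 22 UMIs in DHT cells and 16 UMIs in Vehicle cells. Without the level minimum, 7 of 8 genes again passed 1.5-fold upward, against 9.66% of 18692 genes with over 3 UMIs, and Trim30b with its few UMIs was 1 of the 7.

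Across the 3 osteoclast-like clusters, the ratio of Trim30a was 3.22, 3.40 and 3.40. The level itself was lowest in the cluster led by Slc9b2, Atp6v0d2, Ctsk and Acp5, the bone-resorbing program of mature osteoclasts, at 54.0 CPM in DHT cells and 15.9 CPM in Vehicle cells. The clusters led by Plxna4, Gpnmb and Akap6 (70.0 CPM in DHT cells and 21.7 CPM in Vehicle cells) and by Plxna4, Pdgfa and Gpnmb (67.1 CPM in DHT cells and 19.8 CPM in Vehicle cells) had higher levels, with intervals that overlapped in DHT. Trim12c was likewise lowest in the Slc9b2-led cluster, at 19.2 CPM in DHT cells and 8.66 CPM in Vehicle cells, as were Trim30d, Trim12a, Trim34a and Trim21 by their values.

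Neutrophil transcripts moved with the groups in this class. The 10 neutrophil markers summed to 808 CPM in DHT and 365 CPM in Vehicle osteoclast-like cells, 5 of the 10 were at least 1.5-fold higher, and none was at 0. They stood at a median of 2.68% (DHT) and 2.92% (Vehicle) of their level in all barcodes, a scale for RNA from other cells. Trim30a in osteoclast-like cells stood at 70.0% (DHT) and 75.1% (Vehicle) of its level in all barcodes, and Trim30b at 4.62% (DHT) and 8.65% (Vehicle), within the range of single neutrophil markers (1.83% to 9.77% in DHT, 2.22% to 24.0% in Vehicle). The part of RNA from other cells in the Trim30b counts of this class was not tested. With the median share of all-barcode RNA subtracted, Trim30a had 61.1 CPM in DHT and 18.6 CPM in Vehicle osteoclast-like cells, and Trim12c 20.6 CPM in DHT and 10.0 CPM in Vehicle ones.

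**Figure D1:**
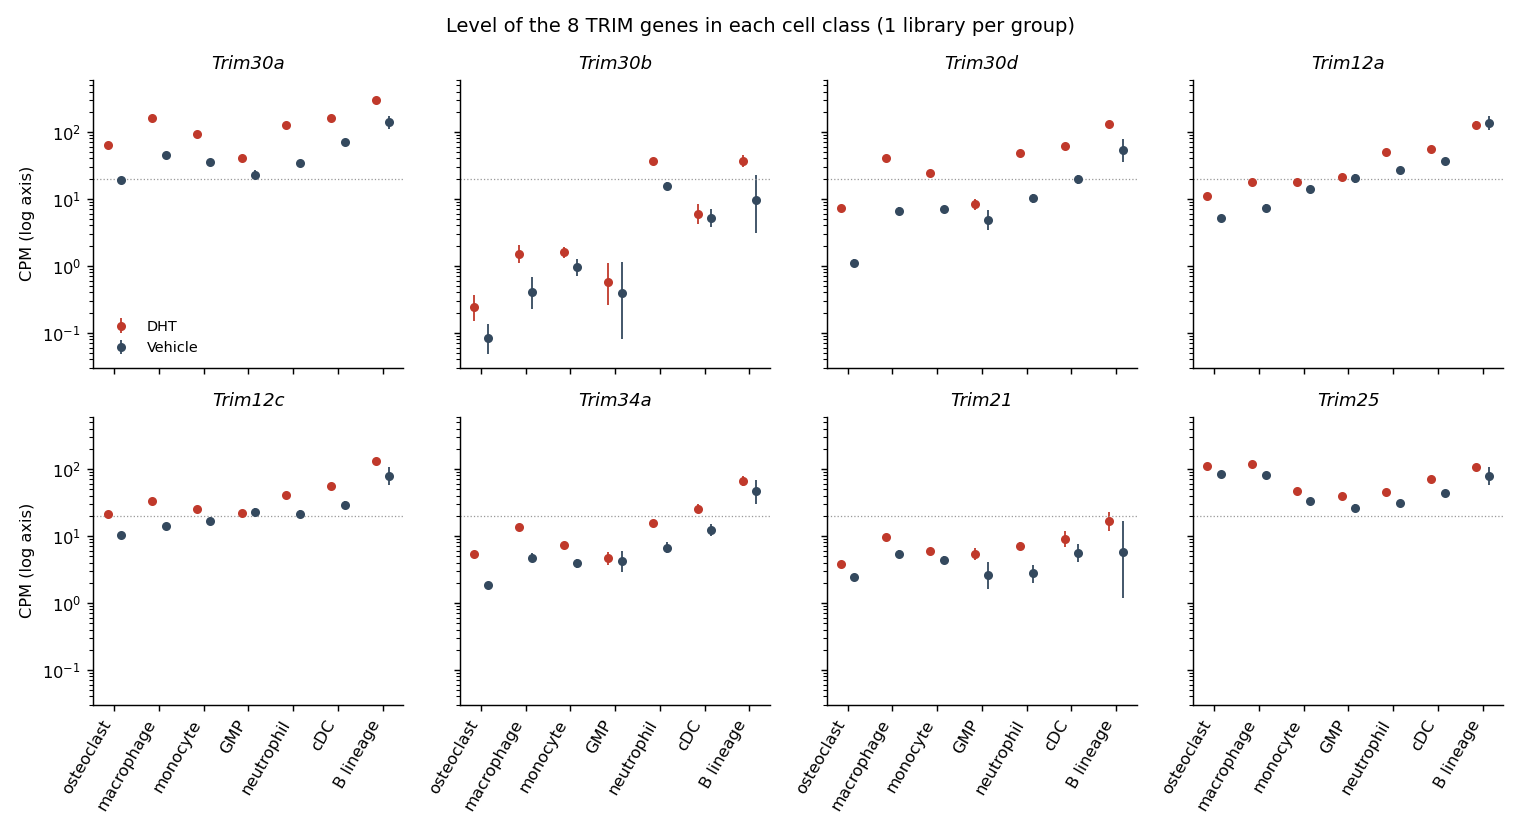
Level of each gene (CPM, log axis) in 7 marker-named cell classes, with DHT cells in red on the left and Vehicle cells in dark blue on the right of each pair; points are summed counts of 1 library, bars are 95% Poisson intervals and the dotted line marks 20 CPM. Trim30a is higher in DHT in every class, from 40.6 CPM against 22.9 CPM in GMP-like (granulocyte-monocyte progenitor-like) cells to 302 CPM against 139 CPM in B lineage-like cells, Trim30b is highest in neutrophil-like and B lineage-like cells of the DHT culture, and Trim25 is highest in osteoclast-like, macrophage-like and B lineage-like cells; cDC, conventional dendritic cell-like.

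The ratio of Trim30a was above 1.5 in all 7 classes. In macrophage-like cells it had 163 CPM in DHT cells and 45.5 CPM in Vehicle cells, a ratio of 3.58 (3.38 to 3.79). In neutrophil-like cells it had 128 CPM in DHT cells and 34.1 CPM in Vehicle cells, a ratio of 3.76 (3.44 to 4.12). The ratio was 2.61 in monocyte-like, 2.28 in cDC-like and 2.18 in B lineage-like cells, and lowest in GMP-like cells at 1.78 (1.499 to 2.11), an interval that reached just under 1.5-fold and overlapped that of B lineage-like cells (1.70 to 2.81). In GMP-like cells 2 of the 10 interferon-response genes with at least 20 CPM were higher (background 1.38%), with a median log2 ratio of 0.35. In macrophage-like cells these were 43 of 44 (background 3.76%) and 2.01. A gene could enter these counts by reaching 20 CPM in the DHT library alone, which built a lower Vehicle level into its selection. For Trim30a, clusters kept without a name gave ratios of 3.40 (a cluster led by histone genes) and 3.37 (a cluster with few UMIs per cell).

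The order of classes by Trim30a level changed little between the cultures at its upper end and more below. In DHT cells, B lineage-like cells came first (302 CPM), followed by macrophage-like (163) and cDC-like cells (162), whose intervals overlapped, then neutrophil-like (128), monocyte-like (91.5), osteoclast-like (63.5) and GMP-like cells (40.6). In Vehicle cells, B lineage-like (139), cDC-like (71.0) and macrophage-like cells (45.5) came first. Monocyte-like (35.1) and neutrophil-like cells (34.1) overlapped, as did GMP-like (22.9) and osteoclast-like cells (19.3) at the low end.

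Trim30d had a higher ratio than Trim30a in 6 of the 7 classes. In B lineage-like cells, which are among the 6, its interval (1.62 to 3.66) contained that of Trim30a (1.70 to 2.81). Trim30d had 40.8 CPM in DHT and 6.56 CPM in Vehicle macrophage-like cells, a ratio of 6.22 (5.41 to 7.18). It had 49.0 CPM in DHT and 10.1 CPM in Vehicle neutrophil-like cells, a ratio of 4.84 (4.12 to 5.73). In GMP-like cells it stood at 8.28 CPM in DHT and 4.89 CPM in Vehicle cells (1.69, 1.17 to 2.51), its smallest ratio among the 7 classes, as for Trim30a.

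Most Trim30b UMIs came from neutrophil-like cells in both cultures. Neutrophil-like cells held 1218 of its 1562 UMIs in DHT and 252 of its 412 UMIs in Vehicle, at 36.2 CPM in DHT cells and 15.7 CPM in Vehicle cells (2.30, 2.01 to 2.64). B lineage-like cells had 36.9 CPM in DHT (84 UMIs) and 9.65 CPM in Vehicle (5 UMIs), with a wide interval of 1.58 to 12.1 on the ratio, and the interval of their Vehicle level (3.13 to 22.5) overlapped that of cDC-like cells. The cDC-like cells had 6.03 CPM in DHT and 5.22 CPM in Vehicle (1.15, 0.724 to 1.84), an interval that includes 1. Its ratio of 5.51 over all cells was above the 2.30 found within the class that held most of its UMIs.

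The TRIM5 relatives and Trim34a had intervals above 1 in some classes and intervals that included 1 in others. In macrophage-like cells, Trim12a had a ratio of 2.44 (2.10 to 2.84), Trim12c 2.33 (2.09 to 2.60) and Trim34a 2.86 (2.38 to 3.44). In GMP-like cells the intervals of all 3 included 1: Trim12a stood at 21.1 CPM in DHT and 20.2 CPM in Vehicle (1.04, 0.859 to 1.27), Trim12c at 22.1 CPM in DHT and 22.5 CPM in Vehicle (0.982, 0.815 to 1.19), and Trim34a at 4.62 CPM in DHT and 4.23 CPM in Vehicle (1.09, 0.711 to 1.71). In B lineage-like cells Trim12a had 128 CPM in DHT and 135 CPM in Vehicle (0.946, 0.727 to 1.25). Trim12a was also under 1.5-fold in monocyte-like (1.31) and cDC-like cells (1.48), where Trim12c had ratios of 1.51 and 1.92. Trim12c in GMP-like cells and Trim12a in B lineage-like cells were the 2 ratios under 1 among the 8 genes and 7 classes.

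Trim21 stayed under 20 CPM in all 7 classes. Its ratio ran from 1.35 in monocyte-like cells (1.14 to 1.61) to 2.58 in neutrophil-like cells (1.87 to 3.65), apart from B lineage-like cells, where 38 UMIs in DHT and 3 UMIs in Vehicle gave an interval of 0.915 to 14.6. Trim25 kept a narrow range of ratios, 1.31 to 1.62, and passed 1.5-fold, among the 7 classes, in cDC-like cells alone (70.4 CPM in DHT, 43.5 CPM in Vehicle). Its level separated the lineages instead: osteoclast-like and macrophage-like cells had 111 and 117 CPM in DHT, and 85.1 and 82.4 CPM in Vehicle, whereas neutrophil-like cells had 44.8 CPM in DHT and 30.7 CPM in Vehicle.

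By class, of the genes that reached 20 CPM, 3 of 4 were at least 1.5-fold higher in macrophage-like cells (background 3.76%), 3 of 4 in monocyte-like (1.62%), 1 of 4 in GMP-like (1.38%) and 5 of 6 in neutrophil-like cells (1.82%). In cDC-like cells 5 of 6 were higher (11.0%), and in B lineage-like cells 4 of 7 (10.5%). Several reached 20 CPM in the DHT library alone, so a lower level in Vehicle was built into their selection. These were Trim30d and Trim12c in macrophage-like and in monocyte-like cells, Trim30b and Trim30d in neutrophil-like, Trim30d and Trim34a in cDC-like, and Trim30b in B lineage-like cells. The B lineage-like class rested on 340 DHT cells and 113 Vehicle cells.

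**Figure D2:**
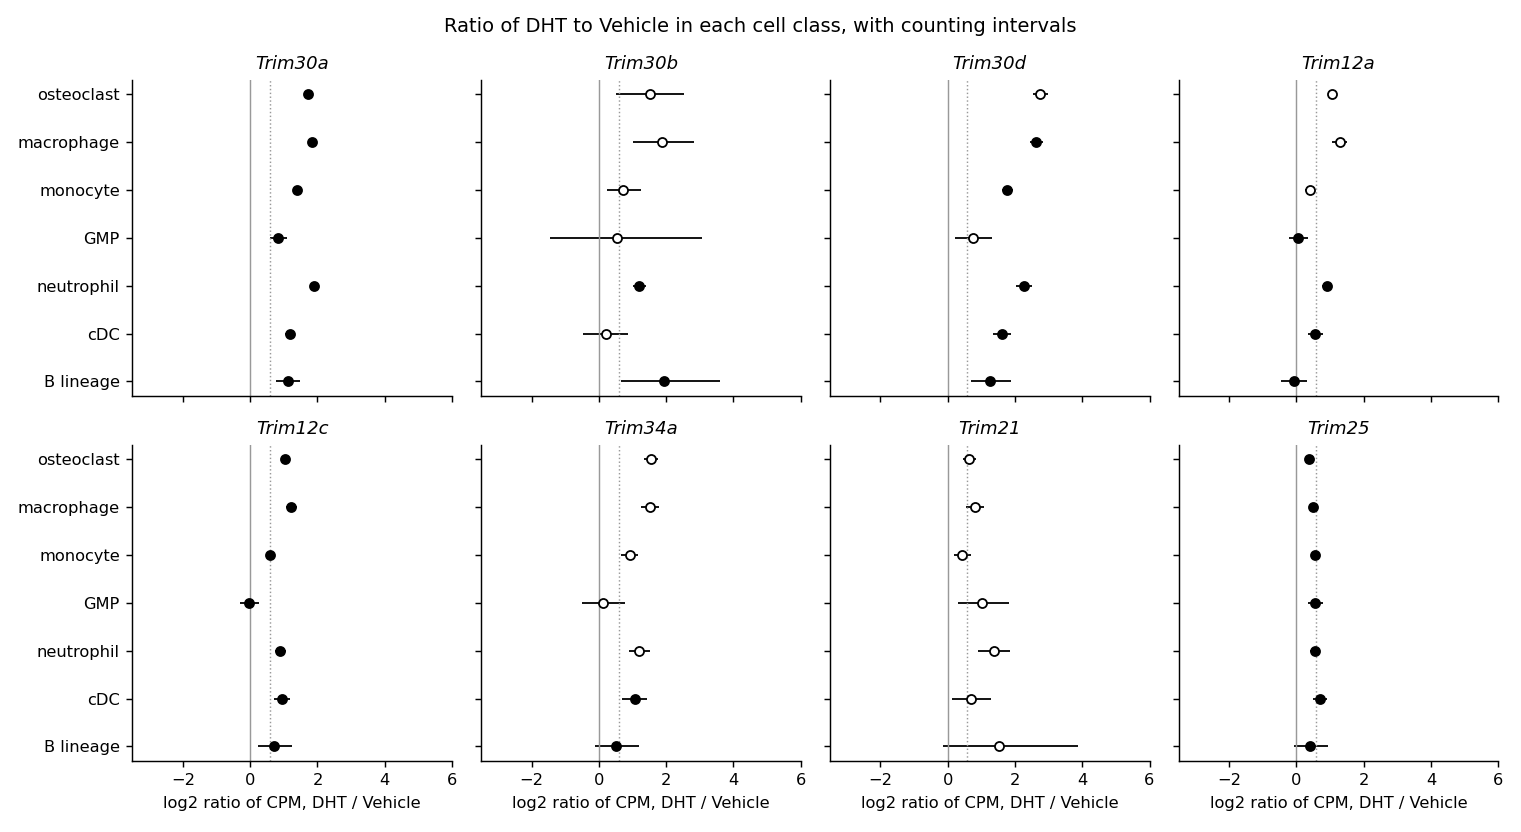
Ratio of DHT to Vehicle (log2 of the CPM ratio) for each gene in the 7 cell classes, with 95% exact conditional intervals; filled points have at least 20 CPM in 1 or both libraries, open points have less, the solid line marks no difference and the dotted line 1.5-fold. Trim30a lies right of the dotted line in all 7 classes (1.78 to 3.76), Trim25 stays near it (1.31 to 1.62), and Trim12a, Trim12c and Trim34a have intervals that include no difference in GMP-like cells; GMP, granulocyte-monocyte progenitor-like; cDC, conventional dendritic cell-like.

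Within neutrophil-like cells the gap differed between clusters. The genes leading the first included Camp, Ngp and Ltf, of neutrophil granules, with Chil3 and Fcnb, as in immature cells. Ngp, Camp and Ltf led the second, and Retnlg, S100a9 and Il1b, as in mature cells, led the third. In that order, Trim30a had 58.4, 152 and 256 CPM in DHT cells, and 29.4, 42.7 and 36.1 CPM in Vehicle cells. The ratios were 1.98 (1.73 to 2.29), 3.55 (3.03 to 4.19) and 7.10 (5.90 to 8.63), with intervals that did not overlap. In DHT the level was higher in each cluster than in the one before it, while in Vehicle the intervals of the last 2 overlapped.

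By their values other genes showed the same order of ratios in part, though several intervals overlapped. Trim12c had ratios of 1.25, 1.58 and 3.54 over these clusters, and Trim12a 1.42, 1.60 and 2.56. Trim30d had 2.55, 5.39 and 5.94, and Trim34a 1.57, 2.01 and 4.75. The level of Trim30b went up steeply across the clusters in both libraries. It was 4.08, 34.9 and 112 CPM in DHT cells and 1.49, 15.5 and 53.6 CPM in Vehicle cells. Its ratios were 2.73 (1.49 to 5.39), 2.25 (1.72 to 3.00) and 2.09 (1.77 to 2.47). These intervals all overlapped, so the ratios of Trim30b could not be put in order. Of the genes that reached 20 CPM, 1 of 4, 7 of 7 and 7 of 7 passed 1.5-fold upward, against backgrounds of 1.42%, 4.16% and 4.21%. Trim12a in the first cluster, Trim30b, Trim30d and Trim34a in the second, and Trim30d and Trim34a in the third, reached 20 CPM in the DHT library alone, which built a lower Vehicle level into these counts. Depth moved with these clusters (median 33425, 15182 and 6998 UMIs per cell), and its part in the ratios was not tested.

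The share of cells with at least 1 UMI depends on depth, so each cell was thinned to 4719 UMIs, which left 6648 DHT cells and 8020 Vehicle cells. At that depth the share with Trim30a was 35.7% in DHT (exact interval 34.5% to 36.8%), against 12.1% in Vehicle (11.4% to 12.8%). Unthinned, the shares were 70.6% in DHT cells and 57.1% in Vehicle cells. After thinning, the share with Trim30d was 13.3% in DHT and 2.24% in Vehicle, and the share with Trim30b 6.36% in DHT and 1.47% in Vehicle. More cells of the DHT library held each of these transcripts at equal depth.

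For Trim25 the unthinned shares pointed the other way, at 69.9% in DHT and 79.3% in Vehicle, whereas at equal depth they were 31.9% in DHT (30.8% to 33.1%) and 26.7% in Vehicle (25.7% to 27.7%), the direction of its CPM. Among the rest, thinned shares were 13.4% in DHT and 5.19% in Vehicle for Trim12a, 14.9% in DHT and 5.95% in Vehicle for Trim12c, 5.75% in DHT and 1.70% in Vehicle for Trim34a, and 3.26% in DHT and 1.32% in Vehicle for Trim21.

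By class, thinned Trim30a was found in 50.2% of DHT and 18.1% of Vehicle macrophage-like cells, in 39.7% of DHT and 12.0% of Vehicle neutrophil-like cells, and in 25.4% of DHT and 9.09% of Vehicle osteoclast-like cells. In GMP-like cells the shares were 15.1% in DHT (10.7% to 20.4%) and 8.84% in Vehicle (4.79% to 14.6%), and these intervals overlapped. None of the 7 classes is known to lack Trim30a.

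**Figure D3:**
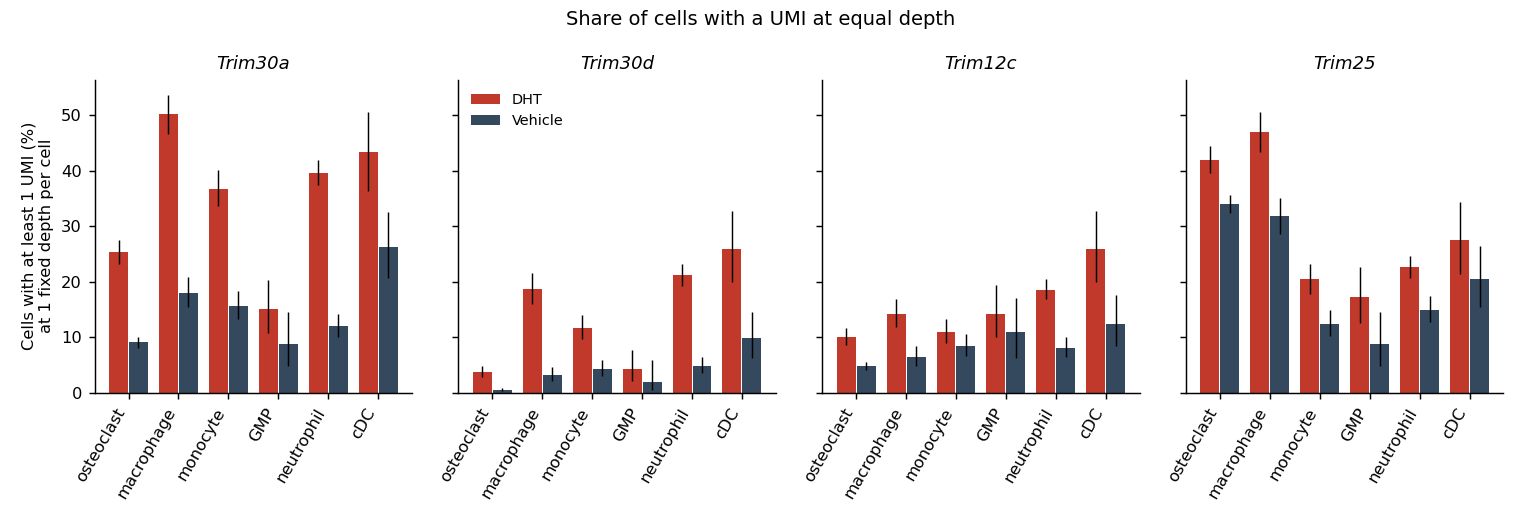
Share of cells with at least 1 UMI of Trim30a, Trim30d, Trim12c and Trim25 in 6 cell classes after thinning every cell to 4719 UMIs, DHT in red on the left and Vehicle in dark blue on the right; bars start at 0 and error bars are 95% Clopper-Pearson intervals. The share for Trim30a in macrophage-like cells is 50.2% in DHT and 18.1% in Vehicle, and the gap for Trim25 in osteoclast-like cells is narrower, at 42.0% in DHT and 34.0% in Vehicle; B lineage-like cells are left out because 47 Vehicle cells reached this depth.

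More different TRIM genes were also found together in a cell. At equal depth, cells held UMIs of a mean of 1.25 of the 8 genes in DHT and 0.566 in Vehicle. Cells with 3 or more of the 8 made up 13.8% in DHT and 1.68% in Vehicle. In neutrophil-like cells these were 23.0% in DHT and 3.53% in Vehicle, and in osteoclast-like cells 4.53% in DHT and 0.582% in Vehicle. Without thinning, the median osteoclast-like cell held 2 UMIs of Trim30a in DHT and 1 in Vehicle, and the highest cell 31 in DHT and 16 in Vehicle.

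Trim30a followed the interferon response across cells. Within each library and class, cells were ranked by the share of their UMIs that came from 50 interferon-response genes, none of them a TRIM gene, and divided into 4 bins of equal cell number, ranges and not cell types. In DHT osteoclast-like cells, Trim30a stood at 20.4, 39.0, 71.4 and 139 CPM from the lowest to the highest bin. In Vehicle osteoclast-like cells it stood at 12.0, 15.6, 19.3 and 31.9 CPM. It was higher in each bin than in the one below in both libraries. A cell's rank and its TRIM counts come from the same UMIs.

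The bins cover different ranges in the cultures. The lowest DHT bin of osteoclast-like cells had up to 0.107% of UMIs from interferon-response genes, and the highest Vehicle bin 0.0978% or more. The lowest DHT bin therefore spans the range of the lower 3 Vehicle bins. Trim30a was at 20.4 CPM (18.8 to 22.3) in that DHT bin, against 12.0, 15.6 and 19.3 CPM in those Vehicle bins, and the interval of the last of these (18.1 to 20.6) overlapped that of the DHT bin. Levels at the same interferon-response share were not matched further between the cultures.

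The spread was widest in DHT neutrophil-like cells. Trim30a there stood at 36.7, 64.8, 120 and 459 CPM over the bins, and Trim30d at 11.9, 23.5, 39.7 and 191 CPM. Trim25 covered a smaller range, with 26.7, 38.3, 51.8 and 87.0 CPM in the same cells. In osteoclast-like cells Trim25 went up bin by bin in both libraries, from 87.3 to 142 CPM in DHT and from 78.3 to 97.3 CPM in Vehicle. It also went up over each bin in monocyte-like cells of both libraries and in DHT macrophage-like cells. In Vehicle macrophage-like cells Trim25 was at 90.1, 77.8, 77.0 and 85.3 CPM and did not follow the ranking. In Vehicle neutrophil-like cells it stood at 25.1, 29.5, 28.7 and 44.6 CPM and followed it in part. Depth ran against the ranking in DHT neutrophil-like cells, with a median of 20671 UMIs in the lowest and 9592 in the highest bin. In DHT osteoclast-like cells these medians were 64772 and 48525. The part of depth in these levels was not tested. The neutrophil-like bins pool the clusters described above, which differed in Trim30a level and in depth, and how the bins divide them was not tested.

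**Figure D4:**
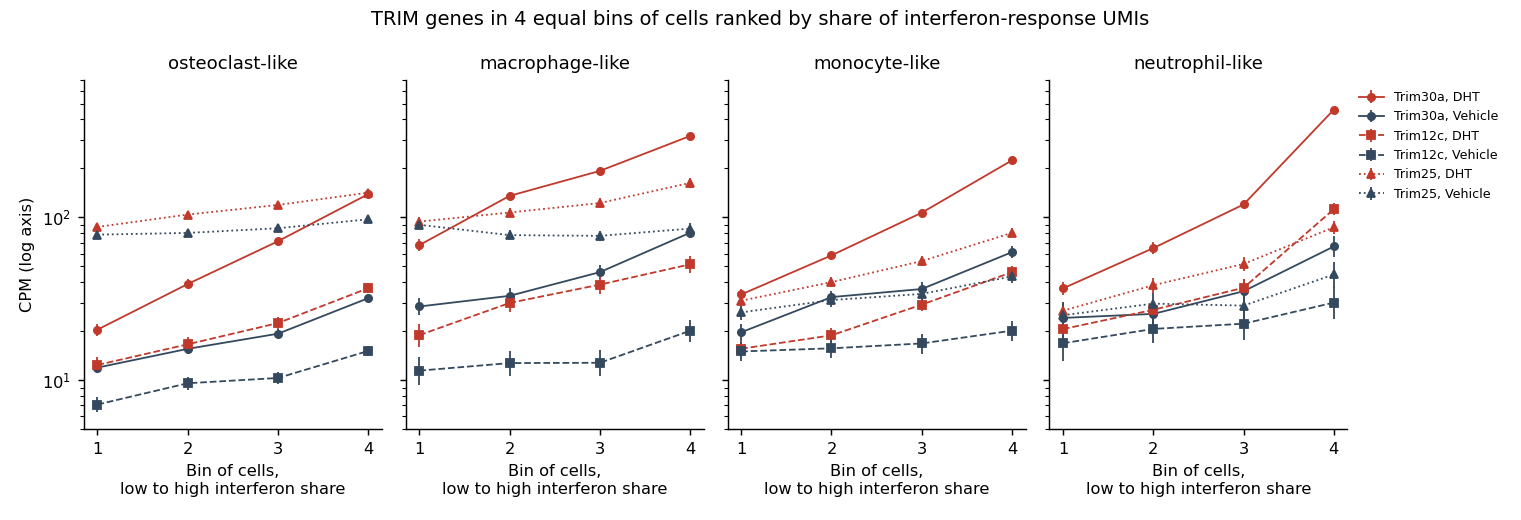
Level of Trim30a, Trim12c and Trim25 (CPM, log axis) in 4 equal bins of cells ranked within each library by their share of interferon-response UMIs, in 4 cell classes; red lines are DHT, dark blue lines Vehicle, and bars are 95% Poisson intervals. In osteoclast-like cells Trim30a climbs over the bins to 139 CPM in DHT and 31.9 CPM in Vehicle, and in neutrophil-like cells to 459 CPM in DHT and 66.3 CPM in Vehicle, while Trim25 spans a narrower range.

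Over 14 profiles (7 classes in 2 libraries), the genes most like Trim30a among 9001 that reached 20 CPM in any profile included several induced by interferon. Pearson's r of log2(CPM + 1) was 0.980 with Slfn8, a Schlafen family gene, 0.977 with Parp9, 0.968 with Igtp, an interferon-inducible GTPase, and 0.964 with Parp14. Trim30d was most like Trim30a (0.962), Stat2 (0.960) and Trim34a (0.944). Trim12c was most like Trim34a (0.978), H2-Q4 (0.971) and Trim5 (0.959), and Trim34a most like Trim12c, Trim30d (0.944) and Crem (0.944). The profiles share libraries, depth and clusters, so r is a description.

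The other genes had different company. Trim12a was most like Smim14 (0.956), Ddit4 (0.954) and Trim5 (0.952), and Trim30b most like Usp32 (0.967), Dennd1c (0.953) and Ipcef1. Trim25 was most like Rnpepl1 (0.955), Ppp4r2 (0.952) and Naa30 (0.949), and its r with the other 7 genes ran from -0.01 with Trim30b to 0.53 with Trim30a. Trim21 did not reach 20 CPM in a profile, and its r with Trim30a was 0.921.

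TRIM genes outside the 8 mostly lay close to no difference over all cells and in osteoclast-like cells, where they reached 20 CPM. Of 60 such genes, 12 reached 20 CPM over all cells, 1 was at least 1.5-fold higher with DHT and none was lower, with a median log2 ratio of 0.01 against -0.02 over all 6735 genes tested. The gene was Trim56, an antiviral ligase, at 20.5 CPM in DHT cells and 13.5 CPM in Vehicle cells (1.52, 1.46 to 1.57). It reached 20 CPM in the DHT library alone, so a lower level in Vehicle was built into its selection. In osteoclast-like cells 0 of 11 passed, with a median of 0.09 against 0.05 over all genes. In the other classes the counts higher were 1 of 11 in macrophage-like (background 3.76%), 0 of 9 in monocyte-like (1.62%) and 0 of 11 in GMP-like cells (1.38%). They were 2 of 9 in neutrophil-like (1.82%), 3 of 13 in cDC-like (11.0%) and 3 of 19 in B lineage-like cells (10.5%). In B lineage-like cells 2 of the 19 were lower. Trim5, in the chromosome 7 stretch, had 5.69 CPM in DHT cells and 2.46 CPM in Vehicle cells (2.31, 2.14 to 2.50), under the minimum level.

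Among 30 genes whose products are partners or targets of TRIM ligases, 7 of 23 that reached 20 CPM were at least 1.5-fold higher over all cells and none was lower, while 5.48% of all genes tested were higher. These were Irf7, the interferon-response transcription factor (52.6 CPM in DHT, 4.89 CPM in Vehicle, ratio 10.7), Ddx58 (40.8 in DHT, 8.46 in Vehicle, 4.82), the RNA sensor Ifih1 (22.2 in DHT, 8.32 in Vehicle, 2.67) and the inflammasome sensor Nlrp3 (36.3 in DHT, 19.5 in Vehicle, 1.86). The kinase Ikbke had a ratio of 1.67, the transcription factor Irf8 1.54, and the conjugating enzyme of ISG15, Ube2l6, 1.52. Of these, Irf7, Ddx58, Ifih1 and Ube2l6 are also among the interferon-response genes used here. Irf7, Ddx58, Ifih1 and Nlrp3 reached 20 CPM in the DHT library alone, so a lower level in Vehicle was built into their selection. RNA of Tab2, whose protein is the target of Trim30a, stood at 122 CPM in DHT cells and 119 CPM in Vehicle cells (1.03). Protein was not measured, so a loss of the Tab2 adaptor could not be seen here. The lowest ratios were those of the DNA sensor Ddx41 (0.859) and of Ube2v2 (0.917).

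In osteoclast-like cells 3 of 20 partner genes passed upward, against 1.01% of all genes tested: Irf7 (10.8), Ddx58 (4.96) and Ube2l6 (1.81), and the lowest were Ddx41 (0.965) and Irf3 (0.991). All 3 that passed are also interferon-response genes. The median log2 ratio of the 20 was 0.11, against 0.05 over all genes tested. Ikbke, Irf8 and Nlrp3, higher over all cells, were under 20 CPM in osteoclast-like cells, with ratios of 0.918, 0.897 and 0.883. RNA of Tab2 stood at 166 CPM in DHT cells and 140 CPM in Vehicle cells (1.18). For scale, 33 of 37 interferon-response genes were higher over all cells, against 5.48% of all genes tested. In osteoclast-like cells 21 of 25 were higher, against 1.01%. Their median log2 ratios were 1.48 and 1.26. Genes could enter these counts, and the count of partner genes, by reaching 20 CPM in the DHT library alone. Isg15 did so in both sets of cells. A lower level in Vehicle was thus built into the selection of such genes. Isg15 had 105 CPM in DHT cells and 8.12 CPM in Vehicle cells over all cells, and 78.0 CPM in DHT and 6.37 CPM in Vehicle osteoclast-like cells, a ratio of 12.2. The TRIM ratios lay below those of Isg15 and Irf7 in both sets of cells.

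The paralogs can exchange reads. Of the 50-base runs of the longest coding transcript, 41.3% in Trim34a also occurred in Trim34b, 24.2% in Trim12c and 17.9% in Trim12a occurred in Trim5, and 6.53% in Trim30a occurred in Trim30d. In the last 500 bases, where 3′ libraries read, none was shared with another gene in Trim30a, Trim30b, Trim30d, Trim12a or Trim34a, and 7.76% were shared in Trim12c. In that stretch 2.44% were shared in Trim25 and 1.77% in Trim21. How the counting treated reads that match more than 1 gene, and on which strand, is not given in the sources used here, so the split of counts between these paralogs, Trim12c above all, is uncertain.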

How the data were processed

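For each droplet-based 3′ library the authors deposited unnormalized UMI counts, with genes as rows and barcodes as columns. Per the submitters' processing notes, Cell Ranger 7.0.1 was used and the builds were mm10 and GRCh38, with no role stated. Not given in the sources used here are the read length, cell calling and whether intronic reads or strand were used. Of 32285 gene identifiers, 32158 matched GENCODE M21 (GRCm38), which supplied positions, and promoter windows are RefSeq's.

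A barcode was kept from 300 genes and 800 UMIs upward if mitochondrial UMIs were 10% or less, and doublets called by Scrublet (203 DHT and 156 Vehicle barcodes) were removed. Cells were clustered with scanpy 1.11.5 and leidenalg 0.10.2 (2000 variable genes, 30 principal components, 15 neighbours, resolution 0.6) under Python 3.11.15. TRIM, interferon-response and partner genes were left out of the variable genes. A cluster took the name of the type with most markers in its top 10 genes, provided that 3 or more markers of the type, making up 50% or more of them, exceeded 2-fold against the median cluster after adding 10 CPM. Clusters with a median under 2000 UMIs stayed unnamed. A class was compared if each library gave it 100 cells or more.

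Counts were summed over cells and scaled to CPM. CPM have exact Poisson intervals, ratios exact conditional binomial intervals and shares Clopper-Pearson intervals, all at 95%. These cover counting error only, and UMIs of 1 library are not replicates of a culture. Higher means a ratio of at least 1.5 with at least 20 CPM in either library. Counts were also simulated as Poisson draws from the Vehicle profile alone, at the depth of each library. Over all cells (6434 genes), this rule found 100 of 100 genes raised 2-fold and 99 of 100 lowered 2-fold. It called 0 unchanged genes, and 95.1% of the intervals held the true ratio. The changed genes had at least 20 CPM in Vehicle, and the simulation held counting error alone. It therefore cannot show how the rule behaves with variation between cultures, or for genes under 20 CPM in Vehicle.

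The 8 genes, the gene lists, the cell markers and the naming rule were chosen with earlier results of these data known. Named besides the 8 were TRIM and partner genes past 1.5-fold, the 2 highest and 2 lowest partner genes, genes among the 5 most like Trim30a, the 3 most like each other gene that reached 20 CPM, and Isg15 and Irf7 for scale. Tab2 and Trim5 were added after their values were seen, as the target of Trim30a and a neighbour on chromosome 7. Some items that these rules would name are not reported here. Alternatives covered scaling (TMM factors from edgeR 4.0.16 under R 4.3.3, and median of ratios), weighting of cells and classes, depth, cell and doublet filters, the CPM minimum and the clustering.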

Additional observations from a re-analysis of the deposited data

Results flagged for a closer look

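The barcodes removed before analysis, 3090 with DHT and 2040 with Vehicle, entered the results above only through the levels in all barcodes. TRIM transcripts differed in the removed barcodes too. Trim30a stood at 85.9 CPM in removed DHT barcodes and 23.4 CPM in removed Vehicle barcodes, a ratio of 3.66 (3.33 to 4.04), and Trim12c at 26.6 CPM in removed DHT barcodes and 13.6 CPM in removed Vehicle barcodes, a ratio of 1.95 (1.70 to 2.25). Both are listed here because the signal lies outside the cells analysed and exceeds the level in Vehicle.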

How the results depend on the processing

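Of the 208 ratios obtained for the 8 genes under alternative settings, in all filtered cells and in osteoclast-like cells, all were above 1, 169 stayed within the main counting interval and 39 moved out of it. Over all cells, 3 of the 4 genes past the minimum were at least 1.5-fold higher in the main setting (5.48% of all genes tested). The count was 5 of 6 with the mean of each cell's CPM and 1 of 2 with a minimum of 50 CPM. With no CPM minimum it was 7 of 8 (21.6% of all genes), and 3 or 4 under the other settings. The share of all genes is given for the main setting and with no CPM minimum alone. In osteoclast-like cells the count, 2 of 3 in the main setting (1.01%), was 7 of 8 with no CPM minimum (9.66%). It was 1 with a minimum of 50 CPM, a mitochondrial limit of 5%, no doublets removed, resolution 1.0, no genes left out of the variable genes, and clusters of the Vehicle library alone, since 2 of the 8 genes then reached the minimum in place of 3. The ratio of Trim30a ran from 2.59 (classes weighted equally) to 4.15 (mean of each cell's CPM) over all cells and from 3.16 to 3.48 in osteoclast-like cells. Trim12a fell below 1.5-fold over all cells under equal class weights (1.22), and Trim25 stayed below it under every alternative (1.12 to 1.41 over all cells). Scaling by TMM or by the median of ratios shifted log2 ratios by -0.07 and -0.08 over all cells. Subtracting free RNA, adding the histone-led cluster and leaving out the low-UMI cluster were chosen after seeing the data. No paired analysis was possible because each group is 1 library.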
